A study of Mus musculus with 10 samples.

Results

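The mitochondrially encoded genes of the mouse were followed through RNA-seq counts from sorted splenic B cells of 10 mice. Members were taken by symbol, as the names that start with mt- or that have the form Trn followed by an amino acid letter, with a digit for the 2 serine and 2 leucine tRNAs. This gave 24 of the 46316 genes in the count table, which are 2 rRNA genes and 22 tRNA genes. The mitochondrial protein-coding genes, of which the reference annotation holds 13, had 0 rows under the names searched and were not analysed here. Of the 24 members, 21 passed the filter on low counts (2 rRNA and 19 tRNA genes) and 3 did not.

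The pBIC10 libraries (n = 3, from 2 females and 1 male, which is replicate 3) came from B220+GFP+ lymphoma cells of moribund mice that carried p53F/F and Blimp1F/F, with IKK2castopF/stopF, Cg1Cre/+ and, as the allele that sets them apart, IL-10F/F. The pBIC libraries (n = 3, all females) came from B220+GFP+ lymphoma cells of moribund mice with the same alleles except IL-10F/F, so both lymphoma groups share the floxed p53 and Blimp1 alleles and the active IKK2 that Cre switches on. The YC libraries (n = 4, from 3 females and 1 male, which is replicate 3) came from mice with YFPstopF/+ Cg1Cre/+ and hold normal germinal centre B cells (B220+YFP+ in the series design), taken 10 days after a second injection of sheep red blood cells. All mice were C57BL/6 and carried Cg1Cre, in which germinal centre B cells make Cre from the constant gamma 1 locus. Some label fields of the YC samples repeat the wording of the lymphoma samples, and the genotype was used to place them.

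Mitochondrial DNA is a small circle transcribed from both of its strands as long precursors. In the heavy-strand transcript the rRNAs and most mRNAs lie between tRNAs, and cutting out the tRNAs releases the RNAs on either side, a layout known as tRNA punctuation. The rRNAs and tRNAs form the translation system for a few subunits of the respiratory chain, and every other protein of transcription, RNA processing, the mitochondrial ribosome and the respiratory chain comes from nuclear genes.

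The library design limits what a count at these genes stands for. Poly(A) RNA was enriched with oligo(dT) and read as single-end 50 nt reads, while the tRNA genes are 59 to 75 nt long. Reads from longer transcripts that run into a tRNA gene cannot be told apart from reads of the tRNA itself, so the values below are counts at tRNA genes and not levels of mature tRNA. Values at the rRNA genes come from the same poly(A)-enriched libraries. They are likewise counts at these genes and not levels of mature rRNA. The strand setting of the counting is not given in the sources used here, and reads from opposite strands at the same place cannot be told apart.

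The sequences of 8 tRNA genes on which the results turn are shown, from GENCODE M21 on the build GRCm38 and in the sense direction of each tRNA, 5′ to 3′, with the anticodon in capitals. The first 5 belong to the heavy-strand transcript, which also carries the rRNAs. They are shown because they were called higher, or had a library far above the rest, in pBIC10 against pBIC.
TrnK (lysine): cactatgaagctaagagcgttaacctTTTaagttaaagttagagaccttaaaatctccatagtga
TrnT (threonine): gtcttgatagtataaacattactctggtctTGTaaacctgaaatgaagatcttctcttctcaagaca
TrnL1 (leucine, UUR codons): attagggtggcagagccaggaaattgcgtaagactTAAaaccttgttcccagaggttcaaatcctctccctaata
TrnI (isoleucine): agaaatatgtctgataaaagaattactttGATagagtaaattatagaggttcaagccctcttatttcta
TrnG (glycine): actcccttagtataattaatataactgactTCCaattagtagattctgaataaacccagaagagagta
The next 3 belong to the light-strand transcript, which runs in the opposite direction. TrnS1 and TrnE had the most counts per length of all members, and TrnP was the 1 tRNA gene called lower in pBIC10 against pBIC.
TrnS1 (serine, UCN codons): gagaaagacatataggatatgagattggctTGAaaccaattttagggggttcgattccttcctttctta
TrnE (glutamate): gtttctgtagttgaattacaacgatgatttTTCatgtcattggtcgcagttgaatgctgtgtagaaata
TrnP (proline): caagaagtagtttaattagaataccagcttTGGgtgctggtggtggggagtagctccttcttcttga

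Library totals ran from 17100995 to 18578955 counts for pBIC10, from 17797344 to 19134178 for pBIC and from 12590117 to 14330172 for YC. The leading heavy chain variable segment took 67.4 to 70.5% of Ighv counts in pBIC10 (Ighv7-3 in all 3 libraries) and 51.6 to 59.1% in pBIC (Ighv8-11 in all 3), against 3.73 to 10.9% in YC with another segment in each library. The lymphoma libraries of a group therefore share a dominant segment, and p-values measure the spread between these libraries. Whether the lymphomas of a group are independent of each other was not tested. Libraries of pBIC and YC were taken over from an earlier series and those of pBIC10 were made for this one, so series and group cannot be told apart wherever pBIC10 is compared. The B cell markers Cd79a, Cd79b, Ms4a1, Pax5, Cd22 and Ptprc were detected in every group. For Cd79b, Ms4a1, Pax5, Cd22 and Ptprc all lymphoma libraries lay below all YC libraries, while Cd79a overlapped between pBIC10 and YC. The part of these markers in the results was not tested. The 7 T cell markers summed to 2.87 to 5.71 CPM (counts scaled to a common library total) in pBIC10, 18.0 to 34.2 CPM in pBIC and 93.5 to 287 CPM in YC, and 6 germinal centre markers to 38.2 to 57.0 CPM in pBIC10, 61.9 to 79.5 CPM in pBIC and 571 to 997 CPM in YC. The 4 plasma cell markers summed to 226 to 256 CPM in pBIC10, 332 to 549 CPM in pBIC and 1199 to 2684 CPM in YC. All 3 sums separated the 3 groups without overlap, pBIC10 from pBIC included, and their part in the results was not tested. In bulk samples, fewer cells of a type and less RNA per cell cannot be told apart.

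The 2 rRNA genes made up 0.161 ± 0.0396% of a pBIC10 library (SD, n = 3), 0.280 ± 0.0242% in pBIC (n = 3) and 1.16 ± 0.0910% in YC (n = 4). By library the share was 0.135, 0.207 and 0.142% in pBIC10 and 0.267, 0.308 and 0.266% in pBIC, against 1.03, 1.20, 1.20 and 1.22% in YC. No library of one group reached the range of another. For the 22 tRNA genes the mean share was 0.235 ± 0.0256% (pBIC10), 0.216 ± 0.0126% (pBIC) and 0.814 ± 0.115% (YC). By library the tRNA share was 0.216, 0.264 and 0.226% in pBIC10 and 0.231, 0.210 and 0.208% in pBIC, against 0.785, 0.982, 0.722 and 0.767% in YC. For the tRNA genes the lymphoma groups overlapped, and both lay below every YC library. This share is mostly that of TrnS1, which held 68.6 to 84.6% of tRNA counts in a library. Counts summed over the heavy-strand tRNA genes alone did not overlap between the lymphoma groups, and pBIC10 replicate 1 reached the YC range. The YC share was 7.21 times that of pBIC10 and 4.15 times that of pBIC for rRNA, and 3.46 times and 3.76 times for tRNA. A share summed over members was given no test.

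**Figure D1:**
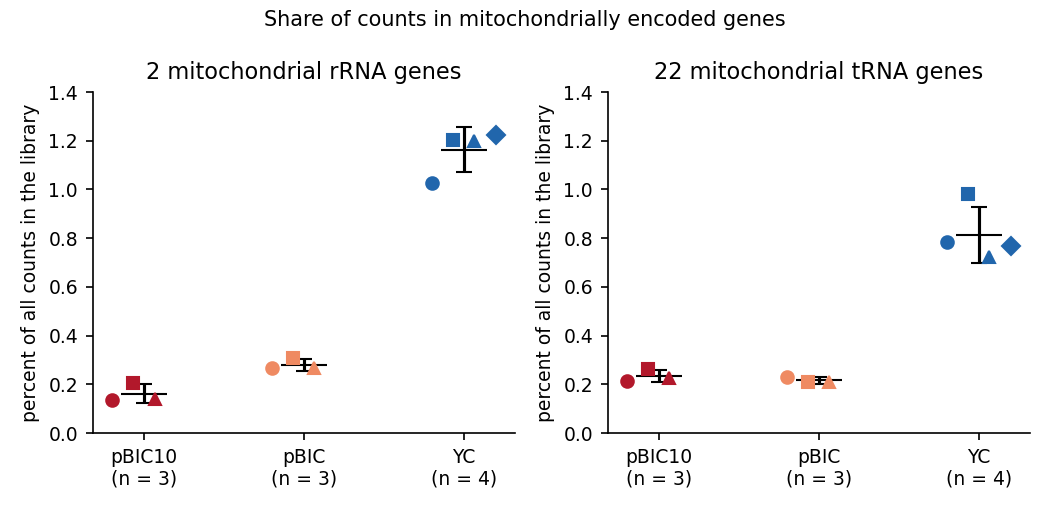
Percent of all counts of a library in the 2 rRNA genes (left) and the 22 tRNA genes (right), with 1 point per library and a different marker for each replicate, and lines for the mean ± SD. YC libraries lie between 1.03 and 1.22% for rRNA and between 0.722 and 0.982% for tRNA, above every library of pBIC10 and pBIC in both classes.

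Against YC, both rRNA genes were lower in each lymphoma group. The 12S rRNA gene mt-Rnr1 encodes the RNA of the small mitochondrial ribosomal subunit. It had 188, 240 and 255 CPM in pBIC10 and 537, 609 and 390 CPM in pBIC, against 2648, 3145, 2699 and 3205 CPM in YC. The groups were separate, with pBIC10 lowest. The log2 fold change of mt-Rnr1 was -3.68 ± 0.21 (SE) in pBIC10 against YC (edgeR adjusted p = 1.28e-07) and -2.51 ± 0.19 in pBIC against YC (edgeR adjusted p = 1.02e-06).

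The 16S rRNA gene mt-Rnr2 encodes the RNA of the large subunit. It had 1174, 1835 and 1096 CPM in pBIC10 and 2003, 2722 and 2257 CPM in pBIC, against 7591, 9257, 9451 and 8790 CPM in YC. Again the 3 groups did not overlap and YC was highest. The log2 fold change of mt-Rnr2 was -2.68 ± 0.21 in pBIC10 against YC (edgeR adjusted p = 9.99e-07) and -1.91 ± 0.20 in pBIC against YC (edgeR adjusted p = 1.01e-05). Of the 1533 words of 50 nt in mt-Rnr2, 16 are also found in the transcript of the nuclear gene Gm20594, so reads in that stretch are uncertain. Gm20594 had 126 to 963 counts per library, against 19936 to 133797 at mt-Rnr2.

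All 21 tested members had a negative log2 fold change in pBIC against YC. The test called 2 of 2 rRNA genes and 16 of 19 tRNA genes lower and 0 members higher, where 27.7% of all 17718 genes tested were called lower and 26.4% higher (54.1% in either direction). The median log2 fold change was -2.21 for the rRNA genes and -1.71 for the tRNA genes tested, against 0.02 for all genes tested. Libraries did not overlap for 18 of the 21 members, against 54.2% of all genes tested.

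The tRNA genes in pBIC against YC covered a wide range of sizes. TrnE, which lies between ND6 and CYTB, had 122, 140 and 69.1 CPM in pBIC, against 511, 684, 928 and 696 CPM in YC. Its log2 fold change of -2.67 ± 0.29 (edgeR adjusted p = 1.63e-05) was the most negative of the 19. TrnK, the tRNA gene between COX2 and ATP8, had 2.25, 4.52 and 1.98 CPM in pBIC, against 14.96, 13.5, 19.8 and 18.9 CPM in YC. TrnK fell by 2.53 ± 0.33 on the log2 scale in pBIC (edgeR adjusted p = 5.12e-05), with no overlap between the groups. At the other end were TrnH (-0.45 ± 0.54), TrnD (-0.60 ± 0.59) and TrnL2 (-1.002 ± 0.46), with edgeR adjusted p = 0.504, 0.414 and 0.0790, which were not called. TrnI and TrnG had log2 fold changes of -2.42 ± 0.93 and -2.55 ± 0.82 in pBIC against YC, with edgeR adjusted p = 0.0455 and 0.0201, and TrnQ had -1.39 ± 0.54 (edgeR adjusted p = 0.0426). In all 3 genes the libraries of pBIC and YC did not overlap. TrnI had 4.18 to 6.94 CPM in pBIC, against 23.9 to 34.0 CPM in YC. TrnG had 5.51 to 11.6 CPM in pBIC, against 40.5 to 52.6 CPM in YC. The spread of a gene was estimated over all 10 libraries, pBIC10 replicate 1 (86.6 CPM at TrnI, 157 CPM at TrnG) included. Its part in these SEs was not tested. With only the 2 groups in the fit all 3 calls were kept. Each of the 3 calls was lost without any single pBIC library, with an adjusted p of up to 0.184 for TrnI, 0.125 for TrnG and 0.109 for TrnQ. That of TrnI was also lost without any single YC library (up to 0.0973), and that of TrnQ without YC replicate 2, 3 or 4 (up to 0.0797) and with females alone (0.0658). With no filter on low counts all 3 were lost, at an adjusted p of 0.172 for TrnI, 0.107 for TrnG and 0.0514 for TrnQ. The TrnP call was lost without pBIC replicate 2, where its log2 fold change was -0.49 (adjusted p = 0.0799) in place of -0.72.

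In pBIC10 against YC the test called both rRNA genes and 8 of 19 tRNA genes lower and 0 members higher, where 26.9% of all genes tested were called lower and 24.8% higher (51.7% in either direction). The median log2 fold change was -3.18 for the rRNA genes and -0.72 for the tRNA genes tested, against 0.01 for all genes tested. Libraries did not overlap for 12 of the 21 members, against 61.0% of all genes. This contrast and the one of pBIC share the 4 YC libraries.

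Apart from TrnL1, the tRNA genes called lower in pBIC10 against YC belong to the light-strand transcript. TrnA, TrnN, TrnC and TrnY stand side by side between TrnW and COX1. TrnA had 5.42, 19.8 and 17.05 CPM in pBIC10 and 23.6, 28.0 and 14.4 CPM in pBIC, against 60.4, 73.8, 85.3 and 104 CPM in YC. TrnC had 18.2, 27.5 and 25.7 CPM in pBIC10 and 27.4, 34.8 and 17.4 CPM in pBIC, against 65.6, 86.7, 116 and 135 CPM in YC. In both, the lymphoma groups overlapped with each other and lay below YC. The log2 fold changes in pBIC10 against YC were -2.52 ± 0.41 for TrnA, -2.08 ± 0.29 for TrnC, -1.96 ± 0.37 for TrnN and -1.59 ± 0.32 for TrnY, with edgeR adjusted p from 9.18e-05 to 0.00128. Those in pBIC against YC were -1.88 ± 0.39 for TrnA, -1.93 ± 0.29 for TrnC, -1.84 ± 0.36 for TrnN and -1.71 ± 0.32 for TrnY.

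TrnE, with 129, 227 and 173 CPM in pBIC10, had a log2 fold change of -1.999 ± 0.29 against YC (edgeR adjusted p = 1.02e-04). TrnP had 15.3, 21.8 and 21.0 CPM in pBIC10, against 58.3, 75.8, 59.1 and 73.7 CPM in YC, and fell by 1.79 ± 0.23 on the log2 scale (edgeR adjusted p = 3.84e-05). No pBIC10 library reached the YC range in these 2 genes. TrnL1 had the only heavy-strand call, at -1.37 ± 0.18 (edgeR adjusted p = 5.70e-05). TrnM, TrnW, TrnQ, TrnR and TrnL2 had negative log2 fold changes that were not called, from -0.35 ± 0.36 (TrnM) to -0.87 ± 0.36 (TrnR). TrnL2 was called lower without pBIC10 replicate 1 (-1.30, adjusted p = 0.0448), TrnQ without pBIC10 replicate 2 (-1.44, adjusted p = 0.0291) and TrnR in 4 alternatives, DESeq2 among them (adjusted p = 0.0346). TrnD was the gene with the most positive value, 1.15 ± 0.55 (edgeR adjusted p = 0.0994), with 2.83, 2.98 and 1.38 CPM in pBIC10, against 0.518, 1.31, 1.27 and 1.21 CPM in YC. It was called higher in the fit of only the 2 groups (adjusted p = 0.0374).

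**Figure D2:**
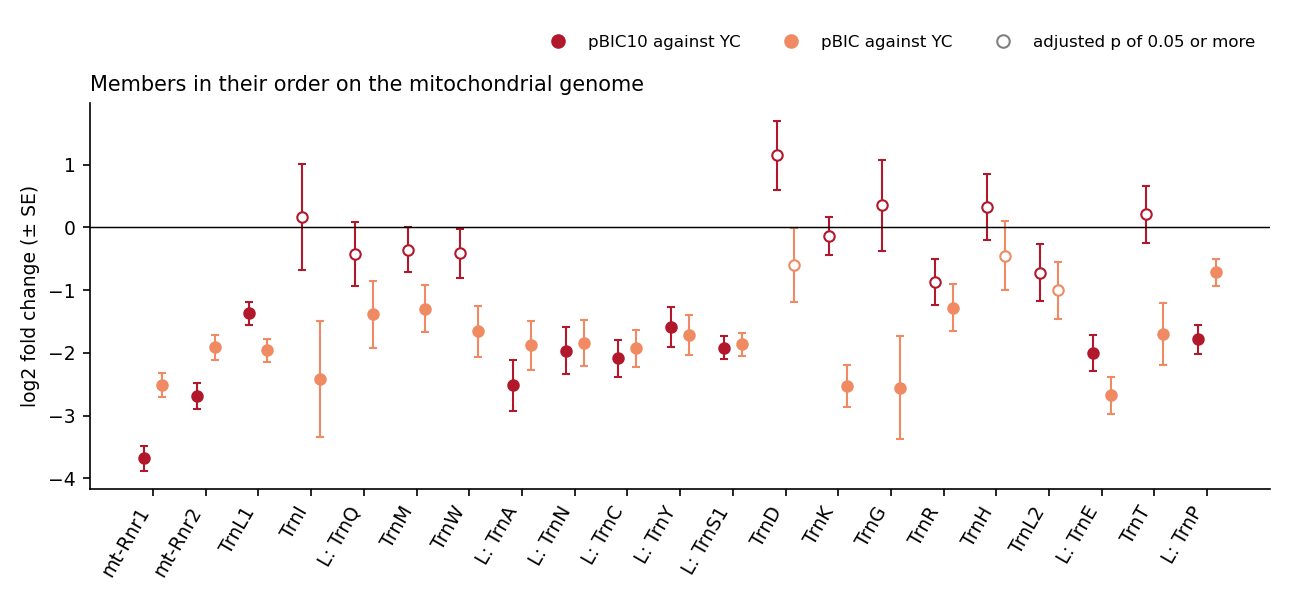
Log2 fold change with SE of the 21 tested members in pBIC10 against YC and pBIC against YC, in their order on the mitochondrial genome, where L marks tRNA genes of the light-strand transcript and open points an adjusted p of 0.05 or more. Every pBIC point is below 0, and the pBIC10 points above 0 are tRNA genes of the heavy-strand transcript such as TrnI, TrnG and TrnT. The light-strand gene nearest to 0 in pBIC10 is TrnQ, at -0.42.

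The 22 tRNA genes were then separated by the strand of the annotation, a grouping chosen with results of these data in view. The 14 genes of the heavy-strand transcript (11 tested) run in the direction of the rRNA genes, and the 8 of the light-strand transcript (8 tested) run in the other. In pBIC10 against YC, 7 of 8 light-strand genes and 1 of 11 heavy-strand genes were called lower, with median log2 fold changes of -1.94 and -0.13, where 26.9% of all genes tested were called lower. In pBIC against YC, 8 of 8 light-strand and 8 of 11 heavy-strand genes were called lower, with medians of -1.85 and -1.65, where 27.7% of all genes tested were called lower. Summed counts at heavy-strand tRNA genes came to 493, 266 and 184 CPM in pBIC10 and 140, 137 and 150 CPM in pBIC, against 503, 571, 654 and 482 CPM in YC. In pBIC10 replicate 1 alone reached the range of YC, and all 3 pBIC10 libraries were above those of pBIC. Without pBIC10 replicate 1, 4 of 11 heavy-strand genes were called lower in pBIC10 against YC, with a median of -0.86 and 10 of 11 negative, and 7 of 8 light-strand genes were called lower with a median of -1.81. Over all genes, fits of that contrast with 1 library left out called 7969 to 8324 in either direction, against 9157 with all libraries. No test of the difference between the strand groups was made.

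TrnS1 dominated the tRNA counts. It lies in the annotation between COX1 and TrnD, on the strand opposite to COX1, so reads of TrnS1 and of a COX1 transcript that runs past its end cannot be told apart here. TrnS1 had 1492, 2057 and 1704 CPM in pBIC10 and 1820, 1871 and 1747 CPM in pBIC, against 6580, 8548, 5384 and 5922 CPM in YC. All lymphoma libraries were below all YC libraries, and the lymphoma groups overlapped. TrnS1 changed by -1.92 ± 0.18 in pBIC10 against YC (edgeR adjusted p = 4.82e-06) and by -1.87 ± 0.18 in pBIC against YC (edgeR adjusted p = 6.41e-06) on the log2 scale. It held 68.6 to 79.3% of tRNA counts in pBIC10 and 82.5 to 84.5% in pBIC, against 73.6 to 84.6% in YC.

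Per length, the levels ordered the members in much the same way at the top of each group. TrnS1 came first with 25376 ± 4138 CPM per kb in pBIC10, 26269 ± 899 in pBIC and 95777 ± 20036 in YC (SD). TrnE was next with 2555 ± 713 CPM per kb in pBIC10, 1601 ± 536 in pBIC and 10216 ± 2481 in YC. TrnL1, directly after the 16S rRNA gene, followed in pBIC10 with 2030 ± 315 CPM per kb, and its spread there overlapped that of TrnE. In pBIC and YC mt-Rnr2 came after TrnE, with 1471 ± 231 CPM per kb in pBIC and 5545 ± 528 in YC, and TrnL1 followed with 1349 ± 230 in pBIC and 5251 ± 796 in YC, within the spread. In pBIC10 TrnG was in place 4 with 882 ± 1230 CPM per kb and TrnI in place 6 with 455 ± 693, each through a high value in pBIC10 replicate 1. Between them mt-Rnr2 was in place 5 with 865 ± 257 CPM per kb, and mt-Rnr1 was in place 11 there with 238 ± 36.7, against place 6 in pBIC with 536 ± 117 and place 5 in YC with 3062 ± 305.

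At the bottom were the 3 members that did not pass the filter. TrnF, the first tRNA of the heavy-strand transcript, had counts of 1, 0 and 0 in pBIC10, 0, 1 and 0 in pBIC, and 0, 0, 1 and 0 in YC. TrnV, which separates the 2 rRNA genes, had 8, 5 and 2 counts in pBIC10, 1, 1 and 1 in pBIC, and 1, 1, 2 and 1 in YC. TrnS2, the serine tRNA gene for AGY codons, had 4, 3 and 4 counts in pBIC10, 8, 5 and 4 in pBIC, and 3, 7, 7 and 7 in YC. A count of 0, seen only at TrnF, allows up to 3 counts. With so few counts no level or fold change is given for these 3 genes.

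Between the lymphoma groups, pBIC10 cells had fewer counts at both rRNA genes and more at part of the heavy-strand tRNA genes than pBIC cells. The test called 2 of 2 rRNA genes and 1 of 19 tRNA genes lower, where 15.1% of all genes tested were called lower (30.7% in either direction). It called 6 of 19 tRNA genes higher, where 15.6% of all genes tested were called higher. The median log2 fold change was -0.97 for the rRNA genes and 0.67 for the tRNA genes tested, against -0.01 for all genes tested. Libraries did not overlap for 7 of the 21 members, against 41.8% of all genes.

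The rRNA genes differed in how firmly the call held. The log2 fold change of mt-Rnr1 in pBIC10 against pBIC was -1.17 ± 0.19 (edgeR adjusted p = 5.72e-04), and it was called in all 17 alternatives. That of mt-Rnr2 was -0.77 ± 0.20 (edgeR adjusted p = 0.0121). For mt-Rnr2 the adjusted p passed 0.05 with pBIC10 replicate 1 left out (0.0605), with pBIC10 replicate 3 left out (0.0504) and with females alone (0.0616), at log2 fold changes of -0.66, -0.61 and -0.63.

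All 6 tRNA genes called higher in pBIC10 belong to the heavy-strand transcript, and all 11 tested genes of that transcript had a positive log2 fold change, with a median of 1.24. Of all genes tested, 15.6% were called higher. TrnK was the call that held throughout. It had 18.3, 16.3 and 11.4 CPM in pBIC10, against 2.25, 4.52 and 1.98 CPM in pBIC, with every pBIC10 library above every pBIC library. Its log2 fold change was 2.39 ± 0.34 (edgeR adjusted p = 2.10e-04), with an adjusted p of at most 0.00320 in 17 alternatives. Against YC the level of TrnK in pBIC10 differed by -0.13 ± 0.30 on the log2 scale (edgeR adjusted p = 0.731), with libraries that overlapped.

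The other 5 calls rested on fewer libraries or settings. TrnT, between CYTB and TrnP, had 20.7, 8.07 and 5.43 CPM in pBIC10, against 2.46, 3.10 and 3.53 CPM in pBIC, and did not overlap. Its log2 fold change was 1.91 ± 0.51 (edgeR adjusted p = 0.0137), and 1.16 (adjusted p = 0.0839) without pBIC10 replicate 1. TrnL1 had 147, 178 and 132 CPM in pBIC10, against 99.2, 84.9 and 119 CPM in pBIC. The TrnL1 libraries were also separate, at a log2 fold change of 0.59 ± 0.19 (edgeR adjusted p = 0.0311) that lost its call in 6 of 17 alternatives, among them those without pBIC10 replicate 1 or 2 and without pBIC replicate 1 or 2 (adjusted p up to 0.129). TrnD had 2.83, 2.98 and 1.38 CPM in pBIC10, against 1.18, 0.790 and 0.160 CPM in pBIC, few counts but without overlap. TrnD changed by 1.74 ± 0.61 (edgeR adjusted p = 0.0456) and TrnW by 1.24 ± 0.42 (edgeR adjusted p = 0.0424) on the log2 scale, with the call lost in 7 and 9 of 17 alternatives. For TrnD these included leaving out pBIC10 replicate 1 or 2 and pBIC replicate 2 or 3 (adjusted p up to 0.137), and for TrnW leaving out pBIC10 replicate 1 or 2 and any pBIC library (up to 0.189).

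One library stood apart at 2 genes. TrnG, between COX3 and ND3, had 157, 13.3 and 10.0 CPM in pBIC10, against 6.96, 11.6 and 5.51 CPM in pBIC. TrnI, between ND1 and TrnQ, had 86.6, 4.27 and 3.38 CPM in pBIC10, against 4.18, 6.94 and 4.60 CPM in pBIC. In both, pBIC10 replicate 1 was far above the other libraries, at 13.4 and 22.7 times the mean of the other 2 pBIC10 libraries, which overlapped with pBIC. The log2 fold change of TrnG in pBIC10 against pBIC was 2.90 ± 0.85 (edgeR adjusted p = 0.0233) with the library and 0.56 (adjusted p = 0.208) without it, and that of TrnI was 2.58 ± 0.97 (edgeR adjusted p = 0.0630) with it and -0.44 (adjusted p = 0.338) without it. In pBIC10 against YC the values were 0.35 ± 0.73 (TrnG) and 0.17 ± 0.84 (TrnI) with replicate 1, and -1.9996 and -2.86 without it, with edgeR adjusted p = 3.38e-04 and 4.29e-05. The call of TrnG against pBIC was also lost without any single pBIC library (adjusted p up to 0.133), with no filter on low counts (0.130) and with only the 2 groups in the fit (0.0602). With limma-voom the log2 fold change of TrnG was 1.83 (limma-voom adjusted p = 0.158), and DESeq2 gave no adjusted p for it. TrnI gained a call without pBIC10 replicate 3 (0.0351) and in 4 other alternatives.

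The same library was also high at TrnH (3.60 times the mean of the other 2), TrnT (3.06 times), TrnL2 (2.53 times) and TrnW (2.12 times), and low at TrnA (0.294 times). Without it, 1 heavy-strand tRNA gene (TrnK) was called higher in pBIC10 against pBIC, the median of the 11 was 0.63, and 8 of 11 were positive. The erythroid markers Hbb-bs, Hbb-bt, Hba-a1, Hba-a2 and Alas2 summed to 1624 CPM in this library, 1262 and 626 CPM in pBIC10 replicates 2 and 3, 31.9 to 658 CPM in pBIC and 184 to 541 CPM in YC. Their part in these results was not tested.

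**Figure D3:**
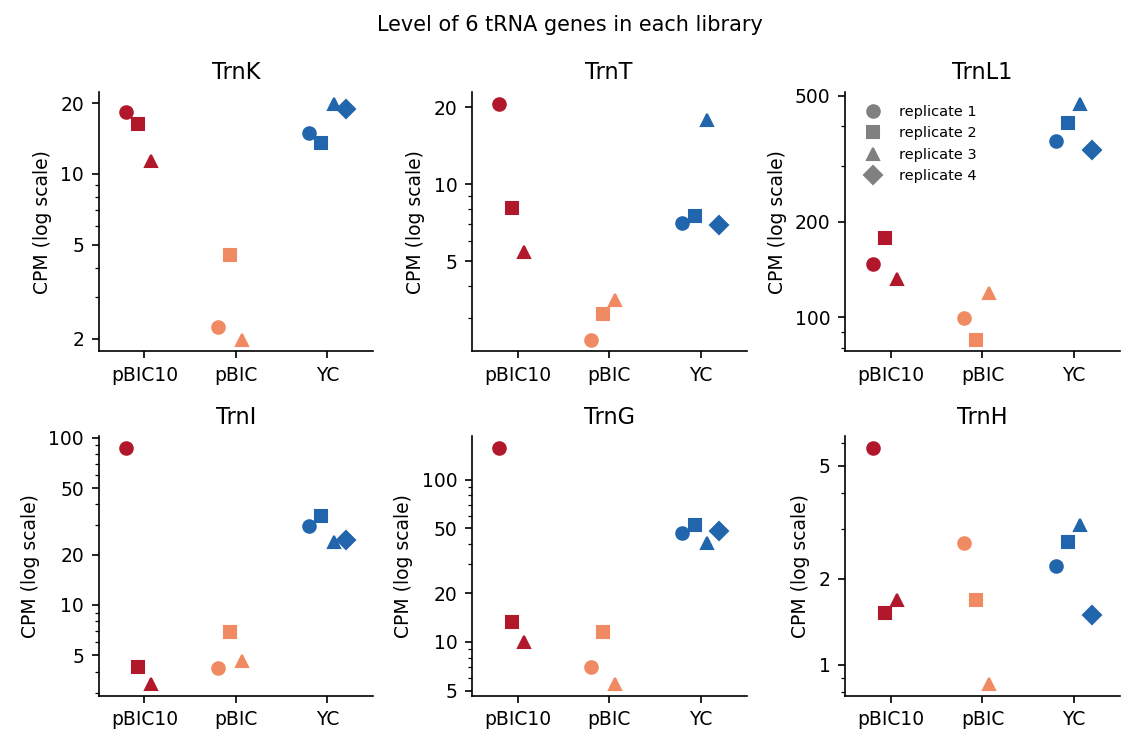
CPM on a log scale of 6 heavy-strand tRNA genes in each library of pBIC10, pBIC and YC, with a marker per replicate. TrnK, TrnT and TrnL1 are higher in all 3 pBIC10 libraries than in pBIC, while TrnI (86.6 CPM), TrnG (157 CPM) and TrnH (5.77 CPM) have 1 high pBIC10 library, replicate 1.

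Of the 8 tRNA genes of the light-strand transcript, 1 was called lower and 0 higher in pBIC10 against pBIC, with a median log2 fold change of -0.09. Of all genes tested, 15.1% were called lower and 15.6% higher, so the count called lower was near its share. TrnP, the last tRNA gene before the control region, had 15.3, 21.8 and 21.0 CPM in pBIC10, against 37.7, 30.3 and 53.7 CPM in pBIC, without overlap. Its log2 fold change of -1.07 ± 0.23 (edgeR adjusted p = 0.00387) was called in all 17 alternatives. TrnA (-0.64 ± 0.41), TrnC (-0.16 ± 0.30), TrnN (-0.12 ± 0.38), TrnS1 (-0.05 ± 0.19), TrnY (0.13 ± 0.33), TrnE (0.67 ± 0.29) and TrnQ (0.97 ± 0.56) were not called, with adjusted p-values from 0.0931 to 0.869. Among heavy-strand genes, TrnM (0.94 ± 0.39, called without pBIC10 replicate 3), TrnR (0.41 ± 0.39), TrnH (0.78 ± 0.57) and TrnL2 (0.28 ± 0.48) were not called either.

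**Figure D4:**
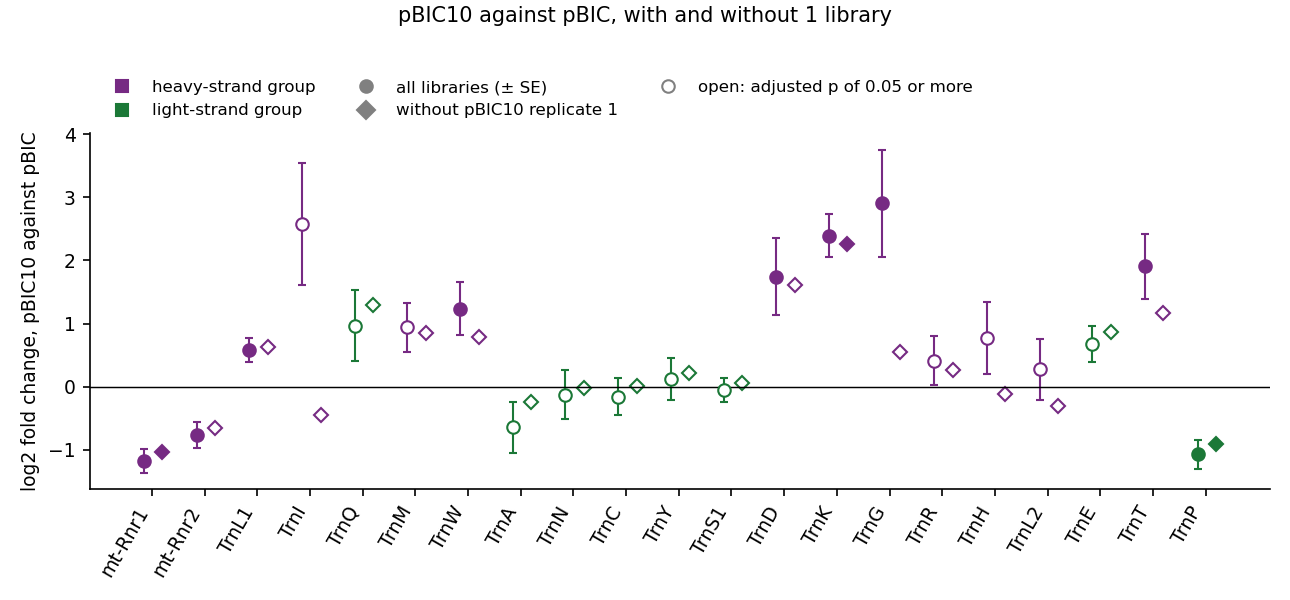
Log2 fold change of the 21 tested members in pBIC10 against pBIC with all libraries (circles, with SE) and without pBIC10 replicate 1 (diamonds), coloured by strand group, where open symbols have an adjusted p of 0.05 or more. TrnG has 2.90 with the library and 0.56 without it, while TrnK has 2.26 and TrnP -0.91 without it.

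Ratios within a library do not depend on scaling. The ratio of 16S to 12S counts was 6.24, 7.64 and 4.30 in pBIC10 and 3.73, 4.47 and 5.79 in pBIC, against 2.87, 2.94, 3.50 and 2.74 in YC. Every lymphoma library lay above every YC library, and the lymphoma groups overlapped. The mean log2 ratio differed by 0.97 in pBIC10 against YC and by 0.61 in pBIC against YC, each with p = 0.0571 in a two-sided exact permutation test, the smallest that 3 against 4 libraries can give. In pBIC10 against pBIC it differed by 0.36 (exact permutation p = 0.3, where 0.1 is the smallest possible). Adjusted over the 3 comparisons these exact permutation p-values were 0.0857, 0.0857 and 0.3.

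Counts at TrnL1 were also set against those at its neighbour mt-Rnr2, a ratio chosen after the values were seen and given no test. There were 12.5, 9.71 and 12.03 TrnL1 counts per 100 counts of 16S rRNA in pBIC10 and 4.96, 3.12 and 5.29 in pBIC, against 4.73, 4.42, 4.98 and 3.82 in YC. The pBIC10 libraries were above all others, and those of pBIC and YC overlapped.

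Against YC, the called nuclear genes of the respiratory chain and the mitochondrial ribosome were mostly higher, while the called mitochondrially encoded genes were all lower. Of 77 nuclear genes of the respiratory chain, 64 were called higher and 0 lower in pBIC against YC, with a median log2 fold change of 0.82, and 25 higher and 0 lower in pBIC10 against YC, with a median of 0.32. The share of all genes tested that were called higher was 24.8% for pBIC10 and 26.4% for pBIC. The count of respiratory chain genes called higher in pBIC10 was not far above that share. The share of all genes tested that were called lower was 26.9% for pBIC10 and 27.7% for pBIC, against 0 of the 77 genes. Of 78 genes for mitochondrial ribosomal proteins, 54 were higher and 0 lower in pBIC against YC, and 30 higher and 5 lower in pBIC10 against YC (3 lower without pBIC10 replicate 1, YC replicate 1 or YC replicate 3). Cox4i1, a subunit of cytochrome c oxidase, had 580 ± 206 CPM in pBIC, against 212 ± 19.2 CPM in YC (edgeR adjusted p = 1.46e-04). Mrpl13, a protein of the large mitochondrial ribosomal subunit, had 300 ± 46.0 CPM in pBIC10, against 36.1 ± 4.27 CPM in YC (edgeR adjusted p = 1.01e-06).

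In pBIC10 against pBIC, 4 of the 77 respiratory chain genes were higher and 26 lower (median -0.48), and of the 78 ribosomal protein genes 3 were higher and 22 lower (median -0.36), where 15.6% of all genes tested were called higher and 15.1% lower. These counts moved with single libraries, and so did the number of all genes called. Fits of this contrast with 1 library left out called 3884 to 6052 of all genes in either direction, against 5441 with all libraries. How far the list counts moved beyond this was not tested. The respiratory chain genes called lower numbered 10, 16 and 12 without pBIC10 replicates 1, 2 and 3, and 49, 12 and 17 without pBIC replicates 1, 2 and 3. The ribosomal protein genes called lower numbered 12 and 11 without pBIC10 replicates 1 and 2, and 34 and 14 without pBIC replicates 1 and 2. Uqcr10, a subunit of complex III, had 72.1 ± 3.80 CPM in pBIC10, against 196 ± 62.0 CPM in pBIC (edgeR adjusted p = 3.20e-04). Ndufb9, a subunit of complex I, went the other way with 192 ± 22.2 CPM in pBIC10, against 91.1 ± 28.6 CPM in pBIC (edgeR adjusted p = 0.00302).

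Genes that transcribe and process mitochondrial RNA were looked at singly. Polrmt, the mitochondrial RNA polymerase, had 43.8, 42.3 and 33.2 CPM in pBIC10 and 43.6, 42.7 and 43.7 CPM in pBIC, against 56.3, 67.9, 65.5 and 63.2 CPM in YC. It was lower in both lymphoma groups, with log2 fold changes of -0.67 ± 0.15 in pBIC10 (edgeR adjusted p = 0.00284) and -0.54 ± 0.15 in pBIC (edgeR adjusted p = 0.00947). The call in pBIC was lost with no filter on low counts (adjusted p = 0.0570). Tfam, which packages mitochondrial DNA and is needed for its transcription, had 84.6 ± 4.71 CPM in pBIC10 and 79.4 ± 14.99 CPM in pBIC, against 47.6 ± 5.72 CPM in YC, and was called higher in both (edgeR adjusted p = 9.56e-04 and 0.00212). In the list of 9 transcription genes, 3 were higher and 1 lower in pBIC10 against YC, 2 higher and 1 lower in pBIC against YC, and 1 higher (Tfb2m) and 0 lower in pBIC10 against pBIC. Of all genes tested, 24.8% were called higher and 26.9% lower in pBIC10 against YC, and 26.4% and 27.7% in pBIC against YC. Between the lymphoma groups these shares were 15.6% and 15.1%. The counts called higher were near these shares, and the list was given no test.

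Of 21 genes for mitochondrial RNA processing and stability, 13 were higher and 1 lower in pBIC10 against YC, and 16 higher and 0 lower in pBIC against YC. Among all genes tested, 24.8% were higher and 26.9% lower in the first contrast, and 26.4% and 27.7% in the second. Elac2 and Prorp, which cut the 3′ and 5′ ends of mitochondrial tRNAs, were among those higher in both. Prorp had 38.9 ± 1.30 CPM in pBIC10 and 29.3 ± 1.21 CPM in pBIC, against 11.2 ± 1.56 CPM in YC. Elac2 had 123 ± 2.28 CPM in pBIC10 and 115 ± 9.32 CPM in pBIC, against 79.9 ± 12.9 CPM in YC. Between the lymphoma groups neither was called, at log2 fold changes of 0.41 ± 0.18 (Prorp, edgeR adjusted p = 0.105) and 0.09 ± 0.17 (Elac2, edgeR adjusted p = 0.712).

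Lrpprc and Slirp encode the partners of a complex that stabilises mitochondrial mRNAs, and their counts moved in opposite directions between the lymphoma groups. Lrpprc had 341, 304 and 316 CPM in pBIC10 and 143, 165 and 147 CPM in pBIC, against 81.4, 75.2, 93.4 and 78.0 CPM in YC. Slirp had 5.24, 6.38 and 7.42 CPM in pBIC10 and 19.2, 29.9 and 26.8 CPM in pBIC, against 10.96, 8.59, 7.91 and 10.0 CPM in YC. For both genes no pBIC10 library reached the range of pBIC. The log2 fold change in pBIC10 against pBIC was 1.08 ± 0.15 for Lrpprc (edgeR adjusted p = 1.85e-04) and -1.99 ± 0.26 for Slirp (edgeR adjusted p = 9.86e-05), and both were called in all 17 alternatives.

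The aminoacyl-tRNA synthetases, which load the mitochondrial tRNAs, gave 9 higher and 3 lower of 22 in pBIC10 against YC and 9 higher and 5 lower in pBIC against YC. In pBIC10 against pBIC, 3 were higher and 2 lower. Against YC, 24.8% of all genes tested were called higher and 26.9% lower in pBIC10, and 26.4% and 27.7% in pBIC. The synthetases called higher lay above these shares and those called lower lay below them. Between the lymphoma groups, 15.6% of all genes tested were called higher and 15.1% lower, and neither count of synthetases passed its share. The list was given no test. Lars2, the mitochondrial leucyl-tRNA synthetase, had 72.7, 59.6 and 61.5 CPM in pBIC10 and 64.1, 86.5 and 92.0 CPM in pBIC, against 256, 437, 333 and 460 CPM in YC. All lymphoma libraries were below all YC libraries, with log2 fold changes of -2.52 ± 0.23 in pBIC10 (edgeR adjusted p = 3.14e-06) and -2.20 ± 0.22 in pBIC (edgeR adjusted p = 8.33e-06).

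**Figure D5:**
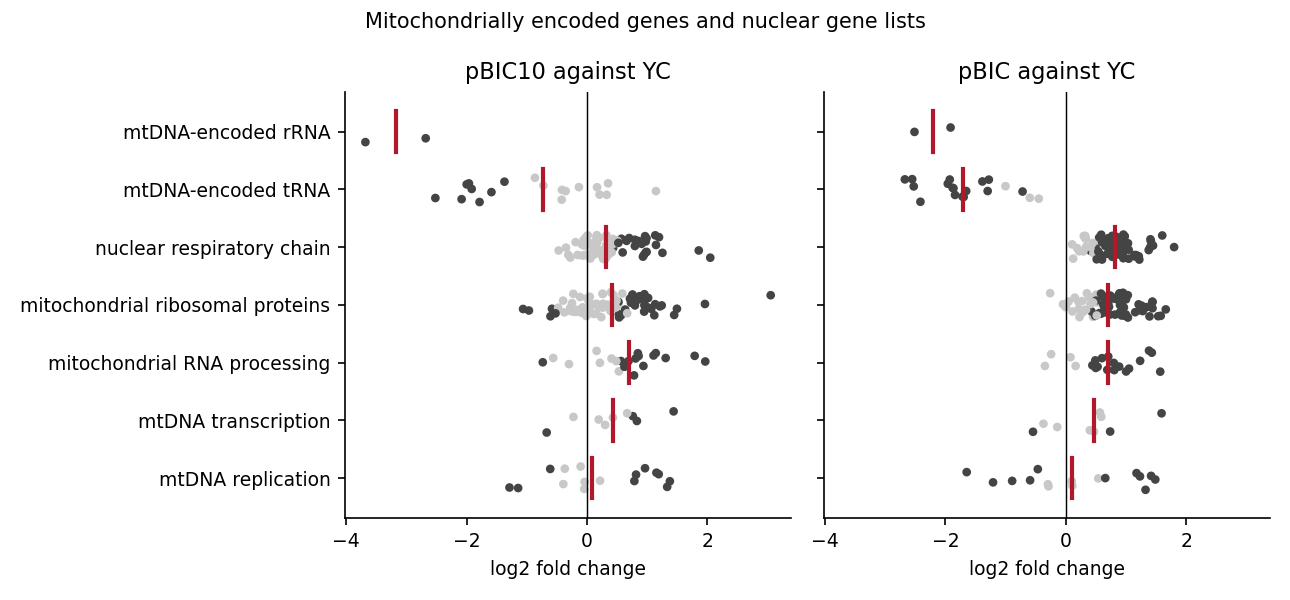
Log2 fold change of each tested gene in pBIC10 against YC (left) and pBIC against YC (right), by list, where dark points have an adjusted p under 0.05, grey points do not, and red bars mark medians. The medians of the rRNA genes (-3.18 and -2.21) and tRNA genes (-0.72 and -1.71) are negative, and those of the nuclear respiratory chain genes are 0.32 and 0.82.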

How the data were processed

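Poly(A) RNA of sorted B cells was sequenced from one end for 50 nt, per the labels' protocols. The deposited table holds unnormalised counts of reads by gene for 10 libraries, made by the authors, and the submitters' processing notes name FastQC, featureCounts and the genome GRCm39. The sources used here do not give the aligner, annotation release or strand setting. Columns were matched to samples by name, with 0 left over.

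Members and lists were chosen with earlier results of these data known. With edgeR 4.0.16 in R 4.3.3, filterByExpr left 17718 genes of 46316. A robust two-sided quasi-likelihood F test followed on TMM-scaled counts, with the 3 groups as coefficients and all 10 libraries in the fit. Benjamini-Hochberg adjustment ran over all genes tested, and a gene was called under 0.05. SEs of log2 fold changes were derived as |log2 fold change|/√F. Every adjusted p not credited otherwise is from edgeR. Log2 ratios of 16S to 12S counts were compared with exact permutation tests (scipy 1.17.1).

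All members were named. From nuclear lists, up to 2 called genes per direction, list and comparison with the smallest adjusted p qualified, plus Polrmt, Tfam, Lrpprc, Slirp, Elac2 and Prorp; the text gives part of them.

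Names, strand, length and sequence came from GENCODE M21 (GRCm38), where 24 of 24 members matched; this is not the build of the counts, so no positions are given. Intervals and limits cover counting error only. On simulated data in pBIC10 against pBIC (17152 genes), 19 of 95 genes changed 2-fold and 61 of 96 changed 4-fold were found, with 0 in the wrong direction. The test called 82 genes there, against 5441 in the real data. With fewer genes called the adjusted cut is stricter, so these rates do not carry over to the real contrast. Alternatives were other scalings (RLE, library totals, upper quartile, members left out), DESeq2 1.42.0, limma-voom (limma 3.58.1), other filters, sex as a covariate, females alone, a fit of only the 2 groups and leaving out each library. Figures used matplotlib 3.10.9. Some genes of the cell type marker lists are not reported here.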

Additional observations from a re-analysis of the deposited data

Results flagged for a closer look

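Of 24 values tested in the YC group for 1 library far from the other 3, 3 stood out, and chance gives about 1 in 20. TrnD was lowest in YC replicate 1, at 0.518 CPM. TrnT was highest in YC replicate 3, the male, at 17.9 CPM. The rRNA share was lowest in YC replicate 1, at 1.03% of counts, still above every lymphoma library. Groups of 3 were too small for this rule, so the high TrnI and TrnG values of pBIC10 replicate 1 were not covered by it.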

How the results depend on the processing

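No paired analysis was possible because each library is from a different mouse and the labels do not link mice across groups. Both rRNA genes were called lower in each lymphoma group against YC in all 18 alternatives of each contrast. With only the 2 groups compared in the fit, members called higher came to 2 in pBIC10 against pBIC (6 with all groups) and 1 in pBIC10 against YC (0 with all groups). Over all genes, those called in either direction in pBIC10 against pBIC fell from 5441 to 3810 in that fit. Leaving out single libraries gave 1 to 8 members called higher in pBIC10 against pBIC, with 1 without pBIC10 replicate 1, 3 without pBIC10 replicate 2, pBIC replicate 1 or pBIC replicate 3, and 2 without pBIC replicate 2. Members called lower numbered 2 to 3 in that contrast, 14 to 17 in pBIC against YC and 10 to 13 in pBIC10 against YC. In the same fits all genes called, in either direction, numbered 3884 to 6052 in pBIC10 against pBIC (5441 with all libraries). They numbered 8331 to 9875 in pBIC against YC (9585) and 7969 to 8324 in pBIC10 against YC (9157).

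Directions turned for genes that were not called with all libraries in the edgeR fit, on the log2 scale. In pBIC10 against pBIC, sex as a covariate gave 0.027 for TrnS1. In pBIC10 against YC, limma-voom gave -1.40 for TrnI and -0.79 for TrnG, sex as a covariate gave -0.18 for TrnI, and females alone gave 0.0020 for TrnQ, 0.20 for TrnM, 0.19 for TrnW and 0.15 for TrnK. With single libraries left out, values in pBIC10 against pBIC ran from -0.44 to 3.13 for TrnI, from -0.38 to 0.058 for TrnC, from -0.17 to 0.064 for TrnS1, from -0.11 to 1.24 for TrnH, from -0.30 to 0.58 for TrnL2, from -0.057 to 1.32 for TrnQ, from -0.080 to 0.34 for TrnY, from -0.31 to 0.16 for TrnN and from -0.19 to 0.0032 for Polrmt. In pBIC10 against YC they ran from -2.86 to 0.71 for TrnI, from -1.9996 to 0.87 for TrnG, from -0.56 to 0.65 for TrnH, from -0.54 to 0.66 for TrnT and from -0.27 to 0.053 for TrnK. The cause was not tested. No scaling moved the median of all genes by over 0.1. Few counts limit TrnF, TrnV, TrnS2, TrnD and TrnQ.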
